A study of Mus musculus and Rattus norvegicus with 2 samples.

Results

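Reads of piRNA length that begin with U and were matched to a piRNA record were examined in 2 small RNA libraries of purified caput epididymal sperm. The rat library came from a young adult Sprague Dawley animal of 450 g and the mouse library from C57BL/6 at 2 months, with no treatment or genetic change named for either and no word on whether animals were pooled. Total RNA was extracted with Trizol, and molecules of 18 to 45 nt were made into libraries. With 1 library per species no spread between animals can be given, no test was possible, and every rat over mouse ratio compares 2 libraries. Markers of sperm or of epididymal cells were not checked in these small RNA reads.

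The deposited tables list each distinct read sequence with its count and the entry it was matched to with up to 2 mismatches. Entries are miRNA, piRNA, Rfam or GenBank records. A sequence was selected if its entry was a piRNA record, its length was 26 to 31 nt, and its first base was U, written T below, after reads matched to the minus strand had been turned to their own orientation. This gave 16165 distinct sequences with 71827 reads in rat and 1731 sequences with 17873 reads in mouse. Together these were 17855 of the 1509482 distinct sequences listed in either library. The selection lay within 38312 piRNA-entry sequences in rat and 8562 in mouse, and the tables held 14652889 listed reads for rat and 11760708 for mouse.

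piRNAs are small RNAs that are bound by PIWI proteins in the germ line and silence transposons and other transcripts. In the adult testis most are pachytene piRNAs, cut from long single-stranded transcripts of noncoding clusters, and their 5′ end is usually U. MILI is known to carry the shorter and MIWI the longer piRNAs of the mouse testis, and secondary piRNAs made by the ping-pong cycle tend to carry A at base 10. Fragments of tRNA, chiefly from its 5′ part, are abundant among the small RNAs of epididymal sperm, and some piRNA records in public collections hold such sequence.

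The 5 residual sequences with most reads in rat are printed first, since they carry 20.7% of that library's residual reads, a residual read being one without tRNA, rRNA or other structural RNA sequence as defined further on. Capitals mark bases 1, 5 and 10, counted from the 5′ end.
rno_piR_013148: TtttGtagaAttgtaactgccaccatagt
rno_piR_013610: TattGtagaTaaaagggacagcataccaga
rno_piR_006964: TgtaTagtcTttaggtagtggcttagtccc
rno_piR_012308: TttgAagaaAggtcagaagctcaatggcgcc
rno_piR_020716: TttgAaatcAggactgttctggaaattcc

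The 5 leading residual sequences of mouse are shown for comparison with the same capitals. None of the 5 was listed in the rat library.
piR-118915: TatgAtcgtGacctttcccgccttgaccc
piR-6811: TaggAcctgAgaacttaaccttgttatggg
piR-121642: TaaaCtttgTatgcctctggacaccctga
piR-121128: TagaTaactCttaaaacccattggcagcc
piR-128418: TacgAgatcGtcccttaaagctcaaagga

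The next pair shows tRNA content in the selection: the leading sequence of the rat record rno_piR_005567 and the tRNA-entry read of the same library nearest to it. The capital marks the base at which the piRNA-entry sequence differs from that tRNA-entry read.
rno_piR_005567 in rat: Tcattggtggttcagtggtagaattctcgc
nearest tRNA-entry read in rat: gcattggtggttcagtggtagaattctcgc

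The selected reads were more abundant in rat than in mouse sperm. They made up 0.490% of listed reads in rat (95% interval 0.487% to 0.494%) and 0.152% in mouse (0.150% to 0.154%). In reads per 1000000 listed reads (RPM) this was 4902 RPM in rat and 1520 RPM in mouse, a 3.23-fold ratio (log2 1.69, interval 1.67 to 1.71). All intervals on shares are exact Clopper-Pearson and those on ratios exact conditional binomial intervals, and they cover counting error only, since PCR reads without molecular identifiers are not independent molecules.

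Within the length window U was the first base of most distinct piRNA-entry sequences in both libraries, but not of most reads as listed. U-starting sequences were 81.2% of the window's distinct sequences in rat and 64.0% in mouse. By reads they were 14.3% in rat and 46.2% in mouse. Over residual reads alone, as defined further on, U was the first base of 90.1% of piRNA-entry reads of these lengths in rat and 40.1% in mouse. By distinct residual sequence it was the first base of 89.9% in rat and 78.2% in mouse. Of the piRNA-entry reads of these lengths with another first base, 98.4% in rat and 74.5% in mouse were not residual. In rat, G-starting piRNA-entry sequences numbered 1691 and held 319954 reads, and A-starting ones numbered 1027 with 102924 reads. C-starting sequences were the next group in mouse, with 415 sequences and 12873 reads. These values describe the selection, which used the first base.

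The piRNA records reached by the selection differed in number, 8230 in rat and 1282 in mouse. Over all piRNA-entry reads, 14166 records were matched in rat and 4011 in mouse. The share of the rat over mouse ratio that comes from the record collections was not tested.

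Most selected mouse reads had tRNA or rRNA sequence, although their entry was a piRNA record. A read was counted as tRNA or rRNA sequence when at least 0.3 of its 14-nt words occurred in tRNA-entry reads, or of its 18-nt words in rRNA-entry reads, of the same library. This held for 14.8% of selected reads in rat (14.51% to 15.03%) and 73.6% in mouse (72.9% to 74.2%). By distinct sequence the same screen took 1.35% in rat and 12.9% in mouse, so in both libraries a small number of sequences held these reads.

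A wider screen with 11-nt words added the reads of both libraries and the entries of snoRNA, snRNA, 7SK, SRP, Y, vault, RNase and mitochondrial RNA. It left 60850 residual reads of 15854 sequences in rat and 3556 residual reads of 1409 sequences in mouse. That is 84.7% of the selected reads in rat and 19.9% in mouse. As a control, the same words also caught 1.65% of miRNA-entry sequences in rat and 13.8% in mouse. By reads the catch was 0.421% of miRNA-entry reads in rat and 3.05% in mouse. The screen thus removed more than structural RNA, and more in mouse.

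The rat over mouse ratio depended on this content. Residual reads stood at 4153 RPM in rat and 302 RPM in mouse, a 13.7-fold ratio (log2 3.78, interval 3.73 to 3.83). Selected reads with tRNA sequence stood at 705 RPM in rat and 1070 RPM in mouse (log2 -0.60, interval -0.64 to -0.56). Those with rRNA sequence were at 23.95 RPM in rat and 110 RPM in mouse (log2 -2.20), and those with other structural RNA sequence at 19.7 RPM in rat and 37.3 RPM in mouse (log2 -0.92). The residual reads were thus the only of these 4 groups that was higher in rat.

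**Figure D1:**
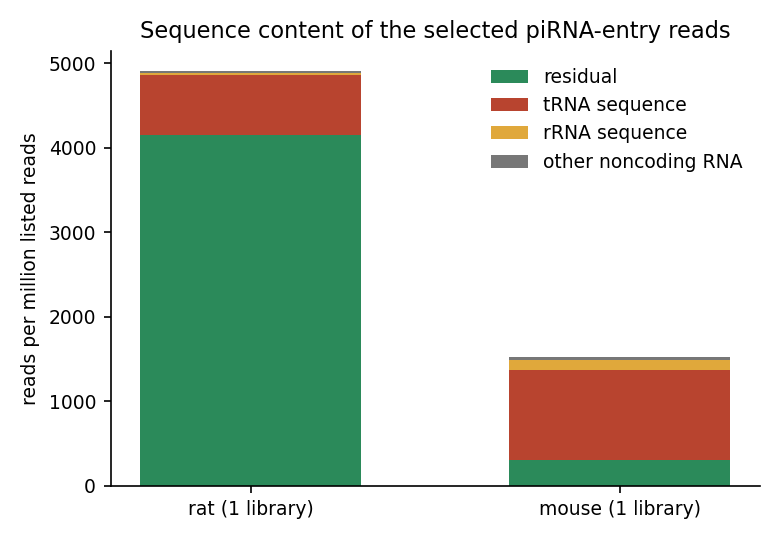
Abundance in RPM of selected piRNA-entry reads in the rat and mouse libraries (y axis), stacked by sequence content after the wider screen. The rat bar is mostly residual sequence (4153 of 4902 RPM) and the mouse bar mostly tRNA sequence (1070 of 1520 RPM).

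A single record accounted for most of the mouse selection. AB350089 took 12233 reads in mouse, 68.4% of the selected reads (67.8% to 69.1%), spread over 190 sequences. None of those reads matched the record without a mismatch. Its leading 31-nt sequence had 4681 mouse reads, 26.2% of the selection. The identical 31-nt sequence was listed in rat under a tRNA entry with 21229 reads.

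The 5 most abundant selected sequences of mouse all belonged to AB350089. After the leading 31-nt sequence came a 30-nt one with 3417 reads. A further 31-nt and a further 30-nt sequence had 608 and 393 reads, and a 29-nt one had 550. All 5 were listed in rat as tRNA, with between 323 and 21229 reads, so identical sequences were assigned to different classes in the 2 tables.

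Mismatches set the 2 libraries apart in the same way. Reads without a mismatch were 78.7% of the selection in rat and 27.4% in mouse, and reads with 2 mismatches were 5.42% in rat and 51.0% in mouse. Among residual reads the difference was small, with 84.0% in rat and 85.8% in mouse free of mismatches.

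Other leading records of the mouse library were also structural. piR-22206 had 742 mouse reads (4.15%) and AB352214 had 151, both with rRNA sequence, as did piR-4034 with 86. piR-1027, whose 28-nt leading sequence lies in the SRP RNA that directs secreted proteins to the endoplasmic reticulum, had 317 reads (1.77%), and piR-18877, with other structural RNA sequence, had 86. AB351015 with 158 reads, AB351100 with 91 and AB349831 with 60 held tRNA sequence. Of the 10 records with most selected reads in mouse, only piR-6811, with 75 reads, was residual.

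In rat 2 of the 10 leading records held tRNA sequence. DQ604081 had 6907 rat reads (9.62%), led by a 30-nt sequence with 2828 reads and a 31-nt one with 2373. rno_piR_005567 had 2401 reads (3.34%), led by a 30-nt sequence with 1349 reads. That sequence differed at 1 base, the first, from a tRNA-entry read with 3086779 rat reads, the 5′ part of a glycine tRNA. The change at that base is what put the sequence among those that start with U.

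The other 8 leading rat records were residual, and one stood far above the rest. rno_piR_013148 had 9873 rat reads, 13.7% of the selection. Its leading 29-nt sequence alone had 9319 reads, or 636 RPM, 94.4% of the record. It was not listed in mouse, and neither was any sequence that holds its bases 3 to 22.

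A close relative of that sequence was listed under another record. rno_piR_036856 had 363 rat reads, and its leading 29-nt sequence had 265 reads and differed from the first by 1 base, at position 24, in capitals here.
rno_piR_036856: ttttgtagaattgtaactgccacTatagt

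The second residual record was present in both species. rno_piR_013610 had 1873 rat reads (2.61%), of which 1751 were the 30-nt sequence printed above. In mouse the identical 30-nt sequence was matched to piR-116326 and had 11 reads. Allowing other ends, 18 rat forms held bases 3 to 22 of the sequence with 1906 reads, and 3 mouse forms held them with 28 reads. The mouse form with most reads, 15, began 1 base further upstream and had 31 nt.
rno_piR_013610 in rat, 1751 reads: TattGtagaTaaaagggacagcataccaga
piR-116326 in mouse, 15 reads: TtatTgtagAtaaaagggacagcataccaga

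The third residual record was of another make. rno_piR_006964 had 1831 rat reads (2.55%) over 265 sequences, and only 14.8% of its reads matched without a mismatch. Its last 10 bases were the same in 86.5% of reads and its first 10 in 74.2%. By contrast, rno_piR_013148 had the same first 10 bases in 99.5% of reads and the same last 10 in 95.1%.

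Below these 3 the residual rat records were close to each other in level. rno_piR_020716 had 419 reads, rno_piR_033897 had 415, rno_piR_012308 had 388 and rno_piR_008712 had 366. Bases 3 to 22 of the leading sequence of rno_piR_012308 occurred in 1 mouse sequence with 4 reads, and those of rno_piR_020716 likewise in 1 mouse sequence with 4 reads.

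Leading residual records of mouse were far lower in reads. piR-6811 had 75 reads, of which 53 were the 30-nt sequence printed above, and piR-118915 had 59, all of 1 sequence. piR-121642 had 52 reads and piR-121128 had 51, with 34 and 29 in their leading 29-nt sequences, and piR-128418 had 28. A 29-nt form of the piR-6811 sequence, shorter by its last base, was listed under piR-117061 with 22 reads. Likewise the 30-nt sequence of piR-105550, with 21 reads, is that of piR-128418 with 1 more base at the end.

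A single sequence held far more of the residual reads in rat than any did in mouse. The most abundant sequence held 15.3% of residual reads in rat and 1.66% in mouse. The 10 most abundant held 22.9% in rat and 8.63% in mouse, and the 100 most abundant 36.2% in rat and 28.6% in mouse. Past the first sequence the 2 libraries were closer. Ranks 2 to 10 held 7.57% in rat and 6.97% in mouse, and ranks 2 to 100 held 20.9% in rat and 26.9% in mouse. With the first sequence taken out of the total, ranks 2 to 10 held 8.93% in rat and 7.09% in mouse. Ranks 2 to 100 then held 24.7% in rat and 27.4% in mouse. In rat 39 residual sequences had 100 reads or more and 748 had 10 or more. In mouse none reached 100 reads and 33 reached 10.

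The rat library also held more kinds of residual sequence at equal depth. A draw of 3556 reads, the mouse total, is expected to hold 1992 distinct rat sequences, against 1409 counted in mouse. Only sequences matched to a piRNA record are counted, and residual sequences matched 8198 records in rat and 1228 in mouse. The part of the record collections in this difference was not tested. Sequences seen once were 63.3% of the residual sequences in rat and 41.6% in mouse, at 60850 and 3556 residual reads.

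**Figure D2:**
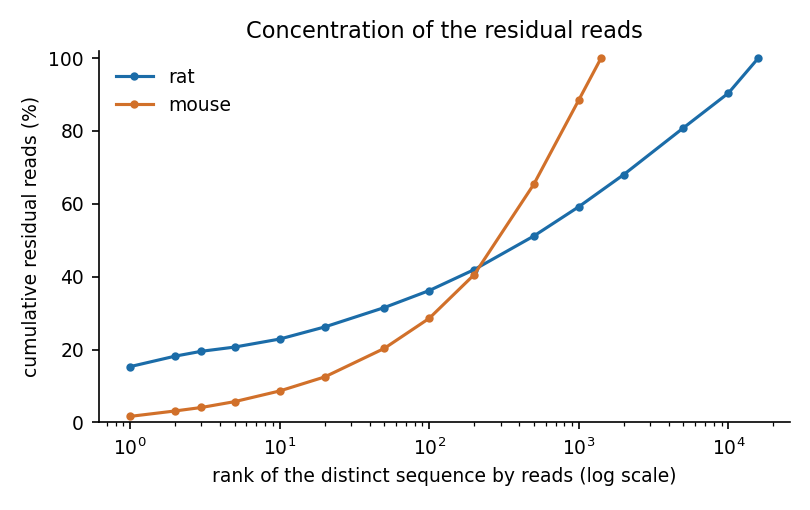
Cumulative share of residual reads (y axis, percent) against the rank of the distinct sequence by reads (x axis, log scale) in rat and mouse. The rat curve starts at 15.3% with its first sequence, the mouse curve at 1.66%, and the mouse curve overtakes between ranks 200 and 500.

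Lengths of residual sequences centred on 29 and 30 nt in both species. By distinct sequence 30 nt was the most frequent length, with 26.9% in rat and 31.6% in mouse, and 29 nt followed with 26.5% in rat and 27.1% in mouse. By reads 29 nt led in rat, with 40.9%, and 30 nt led in mouse, with 33.5%. The 29-nt rno_piR_013148 sequence alone held 9319 of the 24860 residual rat reads of that length. The 26 and 27 nt lengths, at the short end where MILI-bound piRNAs are known to lie in mouse, held 23.4% of distinct residual sequences in rat (22.72% to 24.05%) and 17.1% in mouse (15.2% to 19.2%). By reads the order was the other way, with 11.1% of residual reads in rat (10.8% to 11.3%) and 14.3% in mouse (13.2% to 15.5%).

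Reads with structural RNA sequence were longer within the window. Of them, 43.8% had 30 nt and 35.2% had 31 nt in rat, and 36.4% had 30 nt and 49.0% had 31 nt in mouse. Residual reads of 31 nt were 8.82% in rat and 12.3% in mouse. Over all selected reads, 29 to 31 nt made up 80.9% in rat and 88.1% in mouse, a share that joins 2 unlike length profiles.

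Just outside the length rule, U-starting piRNA-entry reads continued on the short side. In rat there were 2531 reads at 25 nt and 3944 at 26 nt, and 9233 at 31 nt and 607 at 32 nt. In mouse there were 1480 at 25 nt and 465 at 26 nt, and 7449 at 31 nt and 110 at 32 nt.

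**Figure D3:**
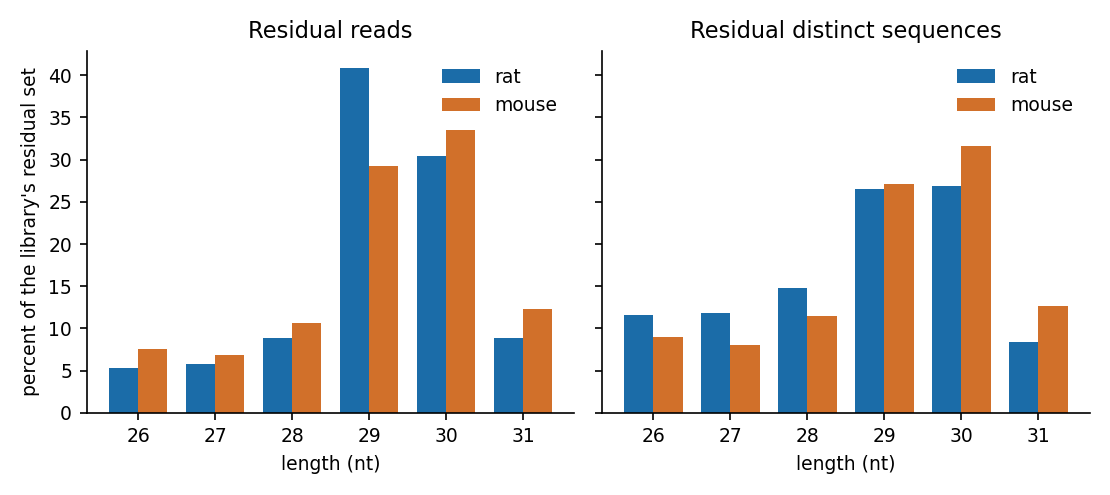
Length (x axis, nt) of residual reads (left) and residual distinct sequences (right) in rat and mouse, as percent of each library's residual set. By distinct sequence 30 nt is highest in both species (26.9% in rat, 31.6% in mouse), and by reads 29 nt is highest in rat (40.9%) and 30 nt in mouse (33.5%).

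Many residual sequences shared a 5′ end and differed at the 3′ end. Grouped by their first 20 bases, the residual sequences formed 9217 groups in rat and 1201 in mouse. Groups of more than 1 sequence were 34.8% of groups and held 84.2% of residual reads in rat, and were 12.7% of groups and held 36.3% of reads in mouse. The rat group with most reads had 31 sequences and 10142 reads, and the mouse group with most reads 6 sequences and 100 reads. Group size grows with depth, and the groups rest on 60850 reads in rat and 3556 in mouse.

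Where a residual sequence had 1 mismatch to its record, the mismatch was most often at its last base. Among plus-strand sequences this held for 2352 of 3509 in rat (67.0%, interval 65.4% to 68.6%) and for 133 of 199 in mouse (66.8%, 59.8% to 73.3%). The 2 shares by distinct sequence lay within each other's intervals. By reads they did not, with 60.3% in rat (59.3% to 61.4%) and 74.1% in mouse (69.2% to 78.7%). For rno_piR_013610 in rat, 30-nt forms that ended in T, G and C in place of A had 34, 7 and 4 reads beside the 1751 reads of the main form. Residual reads lay almost all on the plus strand of their record, with 0.473% on the minus strand in rat and 1.69% in mouse.

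Adenine at base 10, the position known from ping-pong pairs, was only slightly more frequent than at other positions once each sequence was counted once. It was found in 28.5% of residual sequences in rat (27.8% to 29.2%) and 29.5% in mouse (27.1% to 31.9%). At positions 3 to 20 other than 5 and 10, adenine ranged between 23.1% and 32.4% in rat, with a median of 26.3%, and between 23.4% and 33.0% in mouse, with a median of 26.3%. Both base 10 values lay inside those ranges.

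Counted by reads, base 10 gave other values in each library. Over all selected reads adenine stood at base 10 in 34.5% in rat and 6.77% in mouse. Over residual reads it was 40.3% in rat and 29.2% in mouse. The rno_piR_013148 sequence has A at base 10, and without it the residual rat value was 29.5%. Selected reads with structural RNA sequence had A at base 10 in 2.23% in rat and 1.20% in mouse.

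Counted by distinct sequence, the position at which adenine stood out was base 5. It held adenine in 45.1% of residual sequences in rat (44.3% to 45.9%) and 49.6% in mouse (47.0% to 52.3%). Base 2 was next, with 34.0% in rat and 40.1% in mouse. Base 5 and base 2 were thus above all other positions to base 20 in both libraries. By reads this held less well in rat, where adenine stood at base 5 in 37.3% of residual reads, below base 7 (41.3%), base 9 (41.6%) and base 10 (40.3%). The rno_piR_013148 sequence, with A at those 3 bases and G at base 5, is in this value, and without it base 5 held adenine in 44.1% of residual rat reads. In mouse base 5 held adenine in 1778 of 3556 residual reads, above all other positions to base 20.

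By distinct sequence the base 5 share was also computed in splits of the residual sequences. Across the 6 lengths it ranged between 42.8% and 46.7% in rat and between 43.2% and 53.5% in mouse. With each 5′ end counted once it was 42.4% in rat and 49.5% in mouse. Among sequences without a mismatch it was 46.3% in rat and 50.2% in mouse, and among those with at least 5 reads 48.3% in rat and 52.0% in mouse.

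Other listed sequences had lower base 5 shares when each sequence was counted once. Residual sequences of the same lengths that start with U but were matched to other entries had adenine at base 5 in 24.6% in rat (24.02% to 25.22%) and 23.1% in mouse (22.6% to 23.5%), and at base 10 in 24.6% in rat and 22.7% in mouse. Counted by reads, their base 5 share was 34.6% in rat, near the 37.3% of selected residual reads, and 25.8% in mouse. Selected reads with structural RNA sequence had A at base 5 in 63.7% in rat and 3.07% in mouse. Residual piRNA-entry sequences with another first base had adenine at base 5 in 34.4% in rat (32.2% to 36.6%) and 26.3% in mouse (21.98% to 30.93%). Those sequences had adenine at base 10 in 40.0% in rat (37.7% to 42.3%) and 26.8% in mouse (22.5% to 31.5%). In rat, then, base 10 adenine was more frequent by distinct sequence where the first base was not U, with intervals that do not overlap. By reads the rat order was the other way, 33.2% (32.1% to 34.4%) with another first base and 40.3% (39.9% to 40.7%) with U. Without the rno_piR_013148 sequence the U value in rat was 29.5%. In mouse the intervals by distinct sequence overlapped, and by reads the values were 9.55% with another first base and 29.2% with U. Sequences of 1 library that share a 5′ end are not independent, and the intervals do not cover this.

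**Figure D4:**
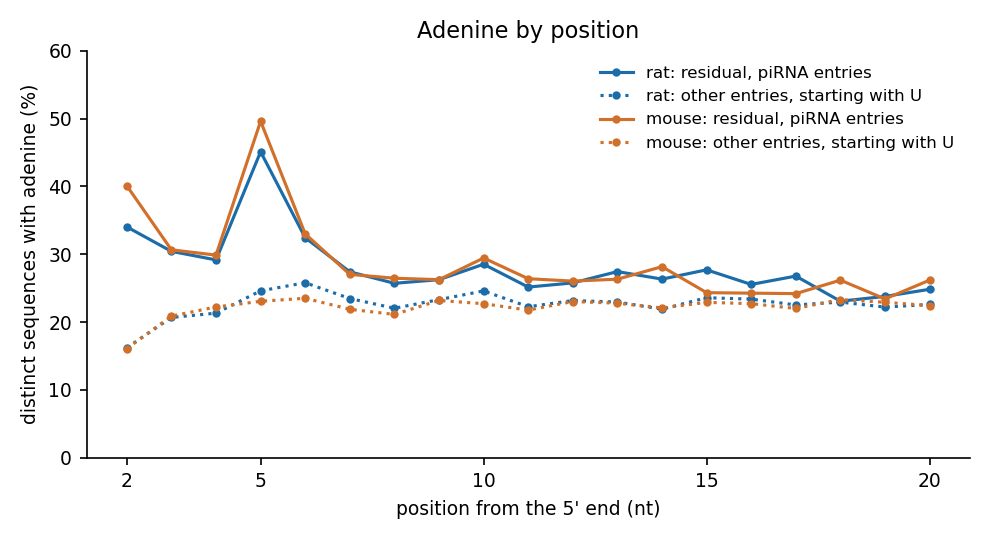
Share of distinct residual sequences with adenine (y axis, percent) at positions 2 to 20 from the 5′ end (x axis), for the selected piRNA-entry sequences (solid lines) and for U-starting sequences of other entries (dotted lines) in rat and mouse. Both solid lines peak at position 5, at 45.1% in rat and 49.6% in mouse, where the dotted lines are at 24.6% and 23.1%.

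Few sequences were selected in both libraries. The overlap was 41 identical sequences, 0.254% of the rat list and 2.37% of the mouse list. Over all entries the rat library listed 650877 sequences, the mouse library 914516, and the 2 together 1509482 distinct ones. Most listed sequences of any entry were thus also in 1 library only, and low overlap is not particular to the selection. They held 3568 rat reads (4.97%) and 338 mouse reads (1.89%). Of residual sequences 32 were shared, 0.202% of those in rat and 2.27% of those in mouse, with 2110 rat reads and 86 mouse reads. With only the first 20 bases required to be the same, 1.22% of residual sequences in rat and 5.11% in mouse had a partner in the other list.

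Against all entries of the other library the overlap was larger, and mainly for mouse. Of the rat sequences 106 were listed in mouse (0.656%), with 9.50% of the selected rat reads. Of the mouse sequences 259 were listed in rat (14.96%), with 77.7% of the selected mouse reads. In rat 156 of those 259 were listed under tRNA, with 12191 mouse reads and 50979 rat reads, and 35 under rRNA, 24 under mRNA and 41 under piRNA. In the other direction, 45 of the 106 rat sequences were listed under tRNA in mouse and 41 under piRNA.

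Of the 41 shared sequences 13 had at least 20 reads over both libraries, and 10 of these were higher in rat by a factor of 2 or more in RPM and none was lower by as much. Scaled to selected reads in place of listed reads, 7 were higher in rat by that factor and 3 were lower by it. Among all 18117 sequences listed in both libraries with as many reads, 45.1% were higher in rat by that factor and 27.5% were lower by it. Among the 1003 of these 18117 that start with U and have 26 to 31 nt, 47.0% were higher and 25.2% lower. With no minimum of reads, 20 of the 41 passed the factor upward in rat and 5 downward. No share over all sequences listed in both libraries is given without a minimum or scaled to selected reads, so those counts have no background here. The median log2 ratio was 2.88 over the 13 and 0.65 over the 18117. The 13 are few, 8 of them were residual and 5 structural, and several share a sequence and differ by 1 base in length.

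The shared residual sequence with the highest ratio was that of rno_piR_013610 and piR-116326, with 1751 rat reads and 11 mouse reads (log2 6.997, interval 6.154 to 8.002). A 26-nt tRNA sequence, DQ604081 in rat and AB351100 in mouse, had 570 rat reads and 4 mouse reads (log2 6.84). Its 27-nt form had 395 rat reads and 3 mouse reads (log2 6.72). The 28-nt form of this same sequence, with 268 rat reads and 82 mouse reads, was among the lowest ratios (log2 1.39, interval 1.03 to 1.77). The 3 forms of this tRNA fragment, which differ only at the 3′ end, thus had unequal ratios.

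The other residual sequences among the 5 highest ratios rested on small mouse counts. The sequence of rno_piR_026788 and piR-10745 had 86 rat reads and 2 mouse reads (log2 5.11, interval 3.21 to 8.18), and that of rno_piR_015574 and piR-134432 had 23 rat reads and 1 mouse read (log2 4.21, interval 1.58 to 9.57).

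At the low end stood an rRNA sequence, DQ615663 in rat and piR-22206 in mouse. Its 28-nt form had 17 rat reads and 18 mouse reads (log2 -0.40, interval -1.45 to 0.64), and its 29-nt form 199 rat reads and 137 mouse reads (log2 0.22, interval -0.10 to 0.55). Both intervals include equal levels. The residual sequence of rno_piR_020029 and piR-15010 had 14 rat reads and 7 mouse reads (log2 0.68, interval -0.72 to 2.23), and that of rno_piR_028097 and piR-115988 had 17 rat reads and 3 mouse reads (log2 2.19, interval 0.40 to 4.60).

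Residual pairs at both ends of the ratios are printed here with bases 1, 5 and 10 in capitals. Base 5 was A in 3 of these 4. It was G in the sequence of rno_piR_013610 and piR-116326, printed above, which had the highest ratio.
rno_piR_026788 and piR-10745: TcccAtacgTctttgcgagttttctgatc
rno_piR_015574 and piR-134432: TcatGtcttAtttatctctatatccctagg
rno_piR_020029 and piR-15010: TgagAaacaGtgtcttttcctctacaagc
rno_piR_028097 and piR-115988: TtttAacacAtgggcctttgcaggatact

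**Figure D5:**
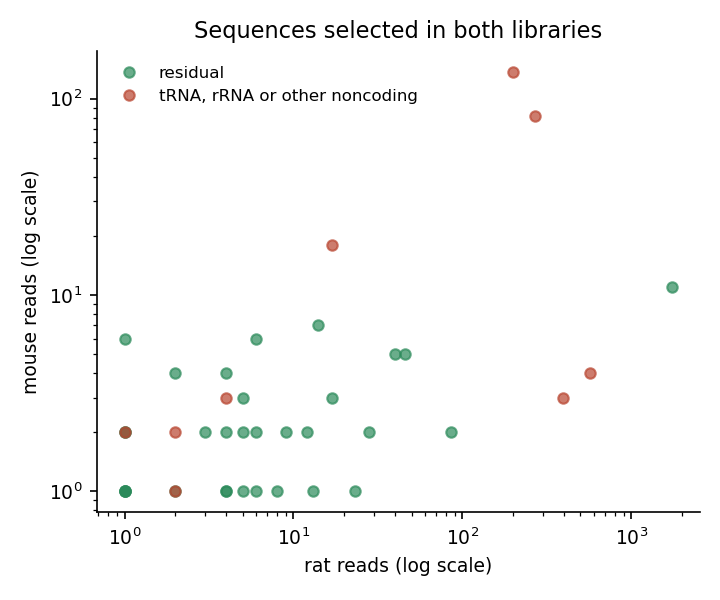
Reads in rat (x axis, log scale) and in mouse (y axis, log scale) for each of the 41 sequences selected in both libraries, coloured by sequence content, with some points drawn on top of each other. The point farthest to the right is rno_piR_013610 with 1751 rat reads and 11 mouse reads, and the 2 highest are structural sequences with 137 and 82 mouse reads.

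For mouse, residual sequences were placed on annotated transcripts by exact match to GENCODE vM21 transcripts, build GRCm38, a build other than the mm9 that the submitters' processing notes name. Of the 1409 residual mouse sequences 227 (16.1%) matched a transcript, and 163 matched transcripts of 1 gene only. Sequences from introns and unannotated clusters cannot be found this way, and other genomic copies of a sequence were not searched.

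The matched sequences lay mostly in long intergenic noncoding RNAs and on their sense strand. Of the 163, lincRNA genes in sense took 103 (63.2%) with 223 reads, and in antisense 1. Protein-coding genes took 30 in sense (18.4%) and 6 in antisense, and other gene types 11 in sense and 12 in antisense. The lincRNA share of all GENCODE transcript bases was 4.31%.

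The same match over other mouse reads gave lower lincRNA shares, but the entry class enters this contrast. Residual piRNA-entry sequences of 26 to 31 nt with another first base matched lincRNA genes in sense in 4 of 67 (5.97%). Residual U-starting sequences of other entries did so in 589 of 25236 (2.33%), while 92.4% of them matched protein-coding genes in sense. Of all 33118 such sequences 89.6% were listed under mRNA entries, so their match to protein-coding genes follows largely from their class.

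The 103 sequences fell in 25 lincRNA genes, of which 16 had at least 3. Gm49794, on chr17:27354111-27367492 on the plus strand, had 13 sequences and 19 reads. Gm21269, on chr7:73816546-73838898 on the plus strand, had 10 sequences and 23 reads. Its neighbour Gm10619, on chr7:73781429-73816503 on the minus strand, had 5 sequences and 8 reads. The 2 genes run away from each other with 42 bases between their annotated starts, and each had sequences in sense only, 15 sequences and 31 reads together.

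Among the others, 1700001L05Rik on chr15:83353847-83367282 on the minus strand had 8 sequences and 27 reads, and Gm5878 on chr6:85111416-85126125 on the minus strand had 8 and 17. 4930444F02Rik on chromosome 10 had 6 sequences and 11 reads, and Gm2762 on chromosome 13 had 5 and 12. 1700029M20Rik on chromosome 4 had 4 sequences and 22 reads, 17 of them of 1 sequence. Of protein-coding genes Nemp1, which encodes a protein of the inner nuclear membrane and lies on chromosome 10, had the most, 9 sequences in sense with 19 reads.

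A sequence of each of 5 lincRNA genes is printed to show what these matches look like, with bases 1, 5 and 10 in capitals. It had the most reads of its gene, alone in Gm21269 and 1700001L05Rik, and level with others in Gm10619, Gm5878 and Gm49794. Each lies within 1 annotated exon and on the strand of its gene, and build GRCm38 applies.
Gm21269, chr7:73824992-73825021, plus strand, 6 reads: TatgTgaatTtcaactgttggctccacagg
Gm10619, chr7:73809380-73809409, minus strand, 2 reads: TaaaAagatAggttggcactccctgaggga
1700001L05Rik, chr15:83354948-83354977, minus strand, 10 reads: TgatActcgGaatttggcacagctctgctt
Gm5878, chr6:85112878-85112907, minus strand, 3 reads: TagaAgacgAgtttggactgagcgaaattc
Gm49794, chr17:27360074-27360103, plus strand, 2 reads: TaatTttctAcctacactaaacttgggacc

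Several sequences of 1 gene shared an end. In Gm49794 a second sequence with 2 reads began at the same base, 27360074, and ended 1 base later, at 27360104. In 1700001L05Rik sequences with 5 and 3 reads ended at different bases but shared their 5′ end at 83355268, the higher coordinate on this strand. Each position of these genes was covered by few reads, with at most 10 reads for 1 sequence in the 5 genes printed.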

How the data were processed

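The deposited tables give whole-number read counts per distinct sequence, collapsed and matched to entries by the authors with up to 2 mismatches, per the file headers. Bowtie 0.12.7 and the builds mm9 and rn5 are named, with no role, in the submitters' processing notes, and no source used here gives the piRNA record collections, the adapter trimming or the order of classes. Depth was 14652889 listed reads in rat and 11760708 in mouse. Unlisted reads are outside these totals.

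Minus-strand sequences were turned to read orientation. RPM values are scaled to listed reads. Word screens needed a share of 0.3 and took words from reads listed at least 10 times. The wider screen and the GENCODE match were added after the data were seen. Members and lists were chosen with earlier results of these data known. Named were the 10 records and 5 sequences with most reads in each library, the 5 of each left by the tRNA and rRNA screen, and the 5 highest and 5 lowest shared sequences with 20 reads or more. Residual records, lincRNA genes and other printed sequences were chosen after their values were seen. The sequence of 1 record is not reported here. Mouse windows of a genome could not be made, since only transcripts were at hand.

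Intervals are at 95%. Parts of the screens and the intervals were run on simulated data, and no error rate of the wider screen is drawn from that. The only measure of wrong catch given for the wider screen is the control on miRNA entries. Software was Python 3.11.15, pandas 2.3.3, numpy 2.4.6, scipy 1.17.1 and matplotlib 3.10.9.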

Additional observations from a re-analysis of the deposited data

How the results depend on the processing

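With 1 library per species no replicate could be left out. No paired analysis was possible because each species has 1 library. Of 48 alternatives 47 moved a share or count beyond its counting interval or by over 1.5 times, and the cause was not tested. Rat had the higher share of selected reads in each alternative, and mouse the higher share of tRNA or rRNA sequence. Base 10 adenine was higher in rat in the alternatives given below, but not over distinct residual sequences (28.5% in rat, 29.5% in mouse) nor over residual reads without each library's leading sequence (29.53% and 29.68%). For length, overlap and the top sequence the order of the species changed in some. The share of listed reads selected was, in rat and mouse, 0.386% and 0.0417% without mismatches, 0.418% and 0.0401% without tRNA or rRNA sequence, 0.427% and 0.112% without the top sequence, 0.527% and 0.171% at 24 to 32 nt, and 0.415% and 0.0302% after the wider screen, and of listed sequences 2.48% and 0.189%. Rat over mouse thus ranged between 3.09 and 13.7. Adenine at base 10 was 39.6% and 19.6% without mismatches, 40.4% and 22.4% without tRNA or rRNA sequence, 40.3% and 29.2% after the wider screen, and 28.22% and 25.997% by distinct sequence. Lengths of 29 to 31 nt held 78.7% and 67.7% without mismatches, 80.0% and 67.5% without tRNA or rRNA sequence, 80.1% and 75.0% after the wider screen, and 62.0% and 72.2% by distinct sequence, so the mouse share was the lower one in the first 3 of these and the higher one in the fourth and in the reads as selected. tRNA or rRNA sequence made up 7.33% and 71.9% with a share of 0.5 of the words, 1.35% and 12.9% by distinct sequence, and 15.3% and 80.1% with other structural RNA in the wider screen. Reads of sequences selected in both libraries were 3.45% and 3.79% without tRNA or rRNA sequence, 3.47% and 2.42% after the wider screen, and 0.254% and 2.37% by distinct sequence. The top sequence held 15.2% and 5.32% without tRNA or rRNA sequence, and 15.3% and 1.66% after the wider screen. Of shared sequences, 7 passed a factor of 2 upward in rat and 3 downward when scaled to selected reads, and 20 upward and 5 downward with no minimum of reads. No share over all sequences listed in both libraries is given at these settings. Reads called without tRNA or rRNA sequence are those left by the narrower screen, and in mouse some of them still had tRNA sequence by the wider one. The narrower screen counted 11868 selected mouse reads as tRNA sequence and the wider one 12580, against 10299 and 10337 in rat. Among the mouse reads left by the narrower screen, the leading record was AB350089, with tRNA sequence and 401 reads (8.50%). The wider screen was chosen after seeing the data. Residual values rest on fewer reads in mouse, 3556, than in rat, 60850.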
